A study of Mus musculus with 32 samples.

Results

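The myogenic regulatory factors are 4 genes, Myod1, Myf5, Myf6 and Myog, and all 4 were found by symbol among the 33397 genes of the mouse RNA-seq table. RNA was sequenced from the gastrocnemius (GAS), a calf muscle, of C57BL/6 mice, which the study's methods give as male C57BL/6J. The labels name sciatic nerve transection as the treatment of every sample and give 8 time points with 4 samples each, 0 d followed by 1, 3, 5, 7, 14, 21 and 28 d. The 0 d samples served as the reference and are taken as undenervated, although the labels list the transection for them too. The methods describe mice whose left sciatic nerve was cut by taking out a short segment, and sham mice that had the surgery without the cut. The study describes its samples as biologically independent, while the labels name no mouse for a sample.

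Myogenic regulatory factors are basic helix-loop-helix transcription factors that pair with E proteins and bind the short DNA sequence called the E-box. In the embryo Myf5 and Myod1 commit cells to the muscle lineage, Myog drives their differentiation into fibres, and Myf6, also called MRF4, acts in both settings and is the main member of the family in adult fibres. In adult muscle Myf5 and Myod1 are also known as markers of satellite cells and myoblasts, while Myog is known to be induced in fibres that lose their nerve and to act on genes of the acetylcholine receptor and of protein breakdown.

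On GRCm38 with GENCODE release M21, each gene had 3 merged exons and shared no exon base with another gene. Myod1 (ENSMUSG00000009471) lay on chromosome 7 from 46376474 to 46379099 on the plus strand. Myog (ENSMUSG00000026459) lay on chromosome 1 from 134289989 to 134292548, also on the plus strand. Myf5 (ENSMUSG00000000435; chromosome 10, 107482908 to 107486134) and Myf6 (ENSMUSG00000035923; chromosome 10, 107492853 to 107494737) were neighbours on the minus strand, 6719 bases apart. Values are FPKM, fragments scaled by exon length and by the sample's fragment total, so levels could be compared between the genes per length.

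Promoters are shown for Myog, the member with the largest fold change, and Myf5, the member with the smallest. Only these members were matched by symbol to a promoter entry. Each stretch runs from 250 bases before the RefSeq start site (GRCm38.p6) through the first 50 bases of the gene, 300 bases in all. Capitals mark E-boxes (CANNTG), the MEF3 site (TCAGGTT) and TATA-like runs (TATAAA or TATATAA, which overlap here). Positions count from 1 at the start site.
Myog, chr1:134289754-134290053, plus strand: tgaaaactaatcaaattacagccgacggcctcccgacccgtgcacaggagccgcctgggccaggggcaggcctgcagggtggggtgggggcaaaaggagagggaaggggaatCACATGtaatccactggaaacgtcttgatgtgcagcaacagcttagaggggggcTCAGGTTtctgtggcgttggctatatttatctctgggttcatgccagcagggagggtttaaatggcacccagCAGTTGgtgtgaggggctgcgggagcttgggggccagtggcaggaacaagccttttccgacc
Myf5, chr10:107486085-107486384, minus strand: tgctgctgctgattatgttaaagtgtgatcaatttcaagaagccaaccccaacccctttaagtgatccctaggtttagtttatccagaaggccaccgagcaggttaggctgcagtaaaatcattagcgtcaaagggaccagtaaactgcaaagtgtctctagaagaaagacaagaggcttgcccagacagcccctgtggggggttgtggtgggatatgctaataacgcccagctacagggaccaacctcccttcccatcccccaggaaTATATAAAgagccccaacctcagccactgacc
The Myog window held 2 E-boxes, CACATG at -138 to -133 and CAGTTG at -12 to -7, and a MEF3 match at -84 to -78. The Myf5 window held neither motif and had overlapping TATA-like letters at 18 to 25. The MEF2 consensus (YTAWWWWTAR, where Y is C or T, W is A or T and R is A or G) had no exact match in either window. The Myog window held ctatatttat, which differs from it in the last letter alone. Of 32851 RefSeq promoter windows of this length, searched on both strands, 72.3% held an E-box, 4.07% the MEF3 letters, 3.19% the MEF2 consensus, 13.6% TATAAA and 3.24% TATATAA. These matches are descriptions of the letters only. No promoter entry was matched by symbol for Myod1 and Myf6.

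Depth, recovered from the FPKM steps, was 14199901 to 17561584 fragments per sample. Of 10 retina markers in the table, 1 to 3 were at 0 in all 4 samples of a day, and their sum was 0.598 to 2.00 FPKM. This was checked because 1 protocol label names retinas while the tissue label names GAS. The 11 muscle fibre markers summed to 39146 to 41723 FPKM at 0 d and to 22027 to 37857 FPKM later. Mitochondrial genes took 14.5% to 18.2% of the fragments at 0 d and 6.70% to 17.1% later. On the first principal component, replicate 1 at 3 d (-19.4) stood apart from the other 3 samples of that day (0.75 to 6.25). In these bulk samples, fewer cells of a type and less RNA per cell cannot be told apart.

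Every member that changed against 0 d rose. Myod1, Myf6 and Myog rose at each of the 7 later days, and Myf5 rose at 14, 21 and 28 d. A gene was called where limma's Benjamini-Hochberg adjusted p over all 22071 tested genes was below 0.05 and the change reached 1.5-fold on the log2(FPKM + 1) scale. The calls thus took in 3 of the 4 members at 1, 3, 5 and 7 d and 4 of 4 at 14, 21 and 28 d. After median-ratio scaling between samples, Myf5 went under the 1.5-fold limit at 21 and 28 d (0.50 and 0.45 on the log2 scale). Of all tested genes, 6.34%, 13.2%, 14.9%, 15.4%, 14.6%, 11.8% and 14.2% were called higher on the 7 days in that order. All 4 members passed the filter on low values, and their ranges by sample are shown in the plot of FPKM against day.

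**Figure D1:**
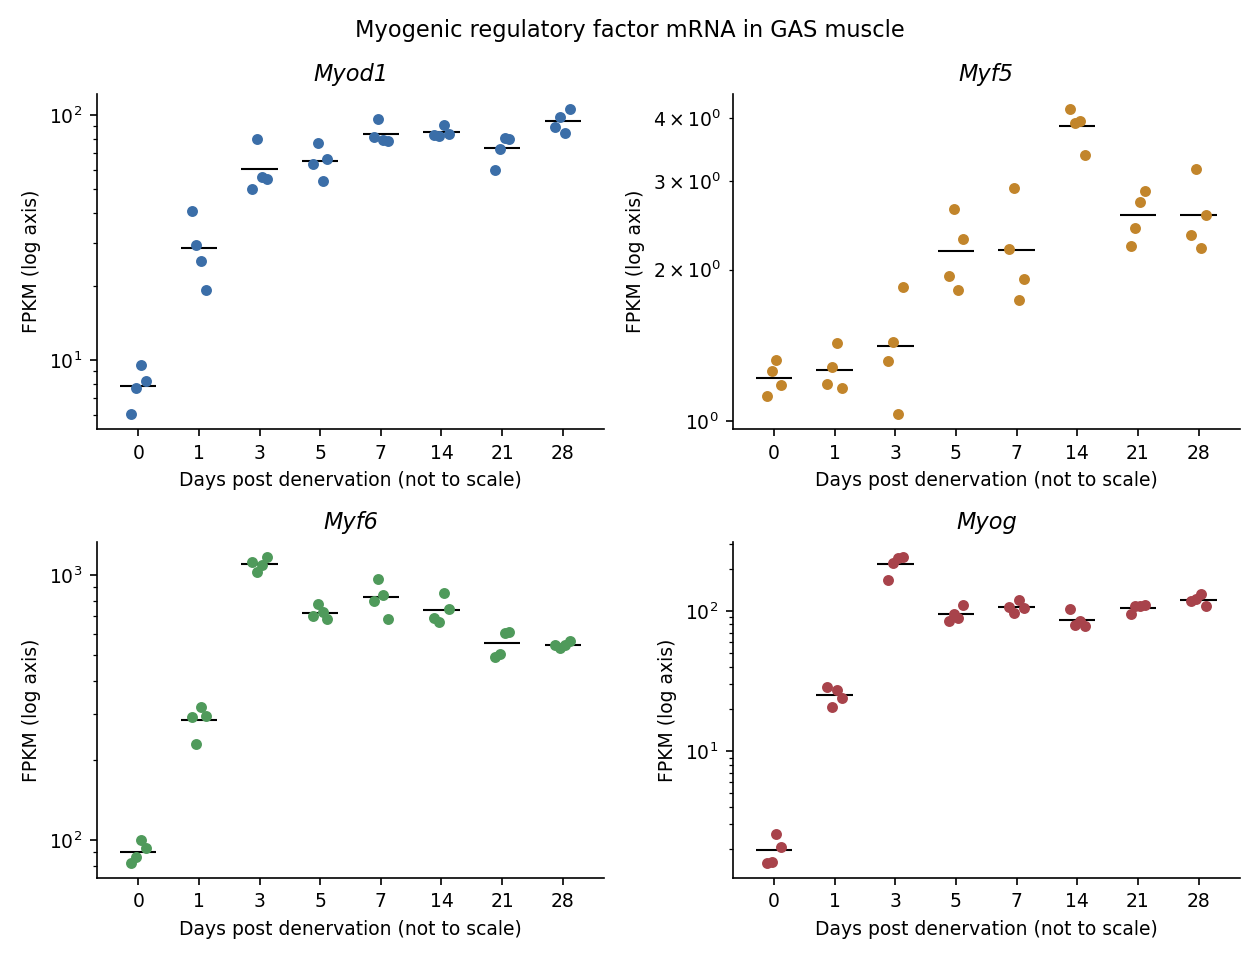
FPKM (log axis, 1 panel per gene) of Myod1, Myf5, Myf6 and Myog in each of the 32 GAS samples against days post denervation; points are samples and lines are means of 4. Myf6 and Myog were highest at 3 d, at means of 1103 and 215 FPKM, Myf5 at 14 d, at 3.86 FPKM, and Myod1 at 28 d, at 94.6 FPKM.

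Myog, the factor of terminal differentiation, had the largest fold rise of the 4. At 0 d its 4 samples read 1.61, 1.61, 2.59 and 2.06 FPKM, from 36 to 59 fragments each. At 1 d they read 28.8, 20.7, 27.4 and 24.0 FPKM. No sample at 1 d came near those at 0 d, and the ratio of the means was 12.8. At 3 d the samples read 165, 218, 236 and 241 FPKM, from 3787 to 6073 fragments. This was the highest day, 109 times the 0 d mean, and its lowest sample, replicate 1, was the one apart on the first principal component. The levels at 5 d were 84.6, 94.2, 88.6 and 109 FPKM, all below those at 3 d. At 7 d they were 107, 96.0, 120 and 105 FPKM, and at 14 d 104, 79.8, 85.0 and 77.6 FPKM. The 21 d samples read 94.7, 108, 108 and 110 FPKM and the 28 d samples 118, 121, 131 and 109 FPKM. From 5 d onward the days thus lay between 77.6 and 131 FPKM. Each day overlapped the next, although all samples of 28 d lay above those of 14 d, and every sample stayed above every sample of 0 and 1 d. 

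The log2 fold change of Myog against 0 d was 3.15 ± 0.12 (SE) at 1 d, 6.18 ± 0.12 at 3 d and 5.36 ± 0.12 at 28 d, with limma adjusted p of 3.47e-17, 3.33e-24 and 1.56e-22. Ranked among all tested genes, the log2 rise of Myog was the 2nd largest at 3 d, the 6th at 5 and 7 d and the 12th or 13th on the other 4 days. By mean FPKM, Myog moved from rank 9066 of the table at 0 d to rank 166 at 3 d and 324 at 28 d. The Myog change from 1 to 3 d was 3.04 ± 0.12 on the log2 scale (limma adjusted p = 4.67e-17), and from 3 to 5 d Myog fell by 1.17 ± 0.12 (2.61e-08). At 28 d Myog was still 0.83 log2 units below 3 d (-0.83 ± 0.12, limma adjusted p = 2.59e-06, with 4.54% of all genes called lower). It was 0.47 ± 0.12 above 14 d, which passed the p (0.0219) but not the 1.5-fold limit.

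Myf6 was the most abundant member in every sample. Its 0 d samples read 82.2, 86.4, 99.7 and 93.4 FPKM and its 1 d samples 292, 230, 319 and 294 FPKM. The 3 d samples read 1123, 1027, 1094 and 1168 FPKM. Myf6 was then 12.2 times its 0 d mean, and its mean moved from rank 392 in the table to rank 27. At 5 d the samples read 699, 775, 727 and 683 FPKM, at 7 d 802, 970, 843 and 683 FPKM, and at 14 d 687, 664, 856 and 744 FPKM. These 3 days overlapped one another and none reached 3 d. At 21 d the values were 493, 503, 604 and 613 FPKM, and at 28 d 545, 529, 546 and 563 FPKM. Relative to their mean, the 28 d samples lay closest together of any day for this gene, at 546 ± 13.8 FPKM (SD, n = 4), 6.03 times the 0 d mean.

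The log2 fold change of Myf6 against 0 d was 1.63 ± 0.10 (SE) at 1 d, 3.60 ± 0.10 at 3 d and 2.58 ± 0.10 at 28 d, with limma adjusted p of 6.18e-13, 5.04e-21 and 7.39e-18. Myf6 rose by 1.96 ± 0.10 from 1 to 3 d and fell by 0.61 ± 0.10 from 3 to 5 d (limma adjusted p = 4.09e-05). That fall lay close to the 1.5-fold limit, and without replicate 4 at 3 d it was -0.58, below the limit. At 28 d Myf6 was at -1.01 ± 0.10 against 3 d (limma adjusted p = 4.52e-09). The later decline from 14 to 21 d was -0.41 ± 0.10, with a size under 1.5-fold and a limma adjusted p of 0.0308, or 0.309 once median-ratio scaled.

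Myod1, which opens muscle genes in myoblasts, rose early and stayed above its 0 d level. Its samples read 6.03, 7.70, 9.54 and 8.23 FPKM at 0 d and 40.8, 29.4, 25.5 and 19.4 FPKM at 1 d. Relative to their mean, the 1 d samples spread the most for this gene, yet the lowest of them was above all 0 d samples. At 3 d they read 49.8, 80.2, 56.2 and 55.1 FPKM and at 5 d 63.4, 77.1, 53.9 and 66.4 FPKM. The 7 d values were 81.3, 96.7, 79.4 and 78.4 FPKM and the 14 d values 82.7, 82.2, 91.2 and 83.7 FPKM. At 21 d they were 59.8, 72.8, 80.9 and 79.6 FPKM and at 28 d 89.4, 98.3, 84.5 and 106 FPKM. The 3 and 5 d samples overlapped, as did those of 7 and 14 d. All samples of 7 d lay above those of 5 d, all of 21 d below those of 14 d and all of 28 d above those of 21 d, but after median-ratio scaling only the last of these held. The 28 d mean of 94.6 ± 9.58 FPKM (SD, n = 4), the highest, stood against 7.88 ± 1.45 FPKM at 0 d.

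The log2 fold change of Myod1 against 0 d was 1.71 ± 0.16 (SE) at 1 d, 2.78 ± 0.16 at 3 d and 3.44 ± 0.16 at 28 d, with limma adjusted p of 1.78e-09, 2.15e-14 and 3.15e-16. From 1 to 3 d it rose by 1.07 ± 0.16 (limma adjusted p = 5.22e-06), and no later step between consecutive days was called. Over the longer span it rose further, by 0.66 ± 0.16 from 3 to 28 d (limma adjusted p = 0.00169, with 7.46% of all genes called higher). That change went under the 1.5-fold limit after median-ratio scaling, at 0.51 ± 0.17 (limma adjusted p = 0.0188), and without replicate 1 at 3 d, at 0.58. At 3 d Myod1 stood at 63.7% of its highest daily mean, a day on which Myf6 and Myog stood at their highest.

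Myf5 was the least abundant member on every day and the one with the smallest change. Its samples read 1.12, 1.25, 1.32 and 1.18 FPKM at 0 d, 1.18, 1.28, 1.43 and 1.16 FPKM at 1 d and 1.32, 1.43, 1.03 and 1.85 FPKM at 3 d. These 3 days overlapped, with as few as 35 fragments in a sample. At 5 d the samples read 1.94, 2.65, 1.82 and 2.30 FPKM and at 7 d 2.20, 2.91, 1.74 and 1.92 FPKM. Every one of them was above every 0 d sample. The 14 d samples read 4.18, 3.93, 3.95 and 3.38 FPKM, above all samples of the other days. At 21 d the values were 2.23, 2.42, 2.73 and 2.87 FPKM and at 28 d 2.34, 3.17, 2.21 and 2.57 FPKM. The 14 d mean was 3.17 times the 0 d mean, and the 28 d mean 2.11 times.

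The log2 fold change of Myf5 against 0 d was 0.03 ± 0.11 (SE) at 1 d and 0.11 ± 0.11 at 3 d, with limma adjusted p of 0.908 and 0.464. At 5 and 7 d it was 0.51 ± 0.11 on both days, which passed the adjusted p (0.000223 and 0.000209) but not the 1.5-fold limit. By the adjusted p alone, 36.1% and 37.1% of all genes were higher on these 2 days. At 14 d it was 1.13 ± 0.11 (limma adjusted p = 6.89e-10), and at 21 and 28 d 0.68 ± 0.11 on both days (5.64e-06 and 4.82e-06). From 7 to 14 d Myf5 rose by 0.62 ± 0.11 (limma adjusted p = 0.000741). Leaving out replicate 3 or 4 of 7 d or replicate 1 of 14 d took that step under 1.5-fold, to 0.55, 0.58 and 0.58. The pseudocount weighs on a gene at this level, and with 0.1 in its place the 5, 7, 14, 21 and 28 d changes were 0.78, 0.78, 1.58, 1.01 and 1.01, all called.

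**Figure D2:**
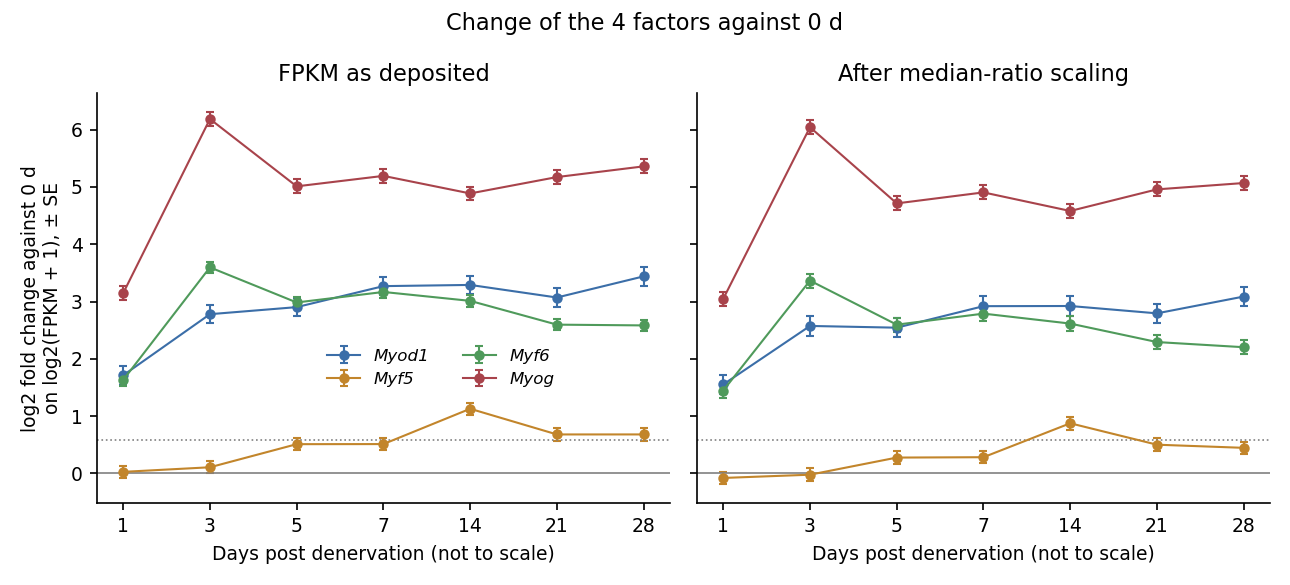
Log2 fold change on log2(FPKM + 1) against 0 d (vertical axis, ± SE, 4 samples a day) of the 4 factors at each day post denervation, from FPKM as deposited (left) and after median-ratio scaling (right); the dotted line marks 1.5-fold. Myog was highest at every day in both panels, and Myf5 at 21 and 28 d was above the line as deposited (0.68 at both) and below it after scaling (0.50 and 0.45).

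Against 0 d, median-ratio scaling between samples changed the calls of Myf5 alone among the 4. In the FPKM as deposited the median log2 change of all tested genes was 0.03 to 0.15, depending on the day, and 68.7% to 79.5% of the calls were higher, against 44.8% to 49.6% after median-ratio scaling. After that scaling Myog was 92.6 times its 0 d mean at 3 d and 47.0 times at 28 d, Myf6 10.5 and 4.63 times, and Myod1 6.48 and 9.22 times. These 3 genes were called at all 7 days under it, when 4.14%, 9%, 6.7%, 7.15%, 6.56%, 6.43% and 6.57% of all genes were called higher on the days in that order. For Myf5 the scaled log2 changes were -0.078, -0.022, 0.28, 0.28, 0.88, 0.50 and 0.45 over the 7 days, so that of these only 14 d was called.

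The exact permutation test, 2-sided with 4 samples against 4, cannot go below p = 0.0286. It reached that value in 26 of the 28 comparisons of a member with 0 d (adjusted p = 0.0308 over the 28), the exceptions being Myf5 at 1 d (exact p = 0.514) and at 3 d (exact p = 0.371). In those 26 the samples of the day all lay above those of 0 d. Genes whose 4 samples all lay above the 0 d samples made up 19.9%, 23%, 35.9%, 32.4%, 36.8%, 32.9% and 36.6% of those tested, in the order of the 7 days.

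Taking 14, 21 and 28 d as 1 group, as the study does for its later stage, set 12 samples against 4, with 20243 genes tested. All 4 members were called higher, where 14.5% of the genes were. The log2 fold changes were 5.14 ± 0.11 for Myog, 3.27 ± 0.11 for Myod1, 2.73 ± 0.12 for Myf6 and 0.83 ± 0.12 for Myf5, with limma adjusted p of 1.84e-15, 1.50e-13, 2.89e-12 and 1.26e-05.

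After 1 d, 5 of the 6 called steps of a member between consecutive days lay between 1 and 5 d. From 1 to 3 d, 3 of 4 were called higher, where 6.63% of all genes were. From 3 to 5 d, 2 of 4, Myf6 and Myog, were called lower, where 2.05% of all genes were, and none higher, where 3.72% were. From 7 to 14 d, Myf5 was called higher, where 0.376% of all genes were. No member was called from 5 to 7 d (0.449% of genes higher and 0.208% lower), from 14 to 21 d (0.0906% and 0.362%) or from 21 to 28 d (0.159% and 0.0408%). Nor was any called between 14 and 28 d, where 0.512% were higher and 0.471% lower. The 14 to 21 d step of Myf5 was -0.45 ± 0.11 with a limma adjusted p of 0.0253 (0.122 after median-ratio scaling) and a size under 1.5-fold. Sorted by mean, the neighbouring days of Myod1 did not differ past the threshold from 28 d down to 3 d, nor those of Myog from 28 d down to 14 d.

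The make-up of the family shifted with these changes. The summed level of the 4 members was 101 ± 9.64 FPKM (SD, n = 4) at 0 d, 1380 ± 63.0 FPKM at 3 d and 763 ± 12.9 FPKM at 28 d. Myf6 made up 89.2% ± 0.92 of it at 0 d, 79.9% ± 2.77 at 3 d and 71.5% ± 0.83 at 28 d. Myog went from 1.92% ± 0.27 to 15.6% ± 2.16 and 15.7% ± 1.34 on the same days. Between 3 and 28 d the Myog share was lower, down to 9.54% ± 1.63 at 14 d. Myod1 held 7.71% ± 0.76, 4.39% ± 1.11 and 12.4% ± 1.16, lowest at 3 d. Myf5 held 1.20% ± 0.07, 0.10% ± 0.02 and 0.34% ± 0.06.

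**Figure D3:**
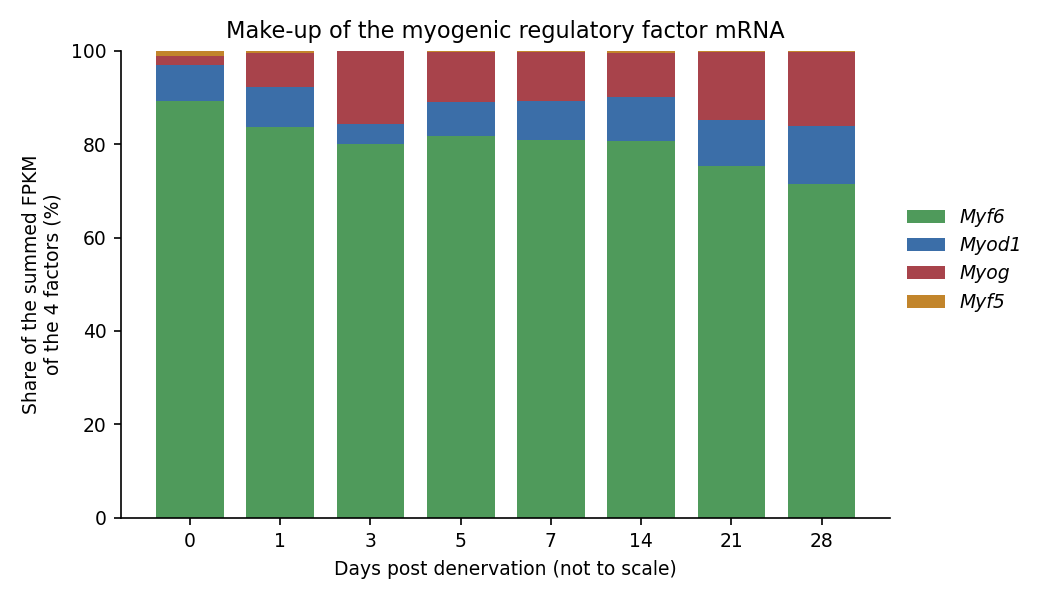
Mean share (%) of each factor in the summed FPKM of the 4, in stacked bars by day post denervation, 4 samples a day. Myf6 is the largest part on every day, at 89.2% at 0 d and 71.5% at 28 d. Myog is at 1.92% at 0 d, 9.54% at 14 d and 15.7% at 28 d.

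Ratios between members within a sample, which scaling between samples does not touch, were compared with 0 d in 42 exact permutation tests (6 pairs, 7 days, 0.1 FPKM added to each). In 38 of the 42 the 4 samples of the day lay apart from the 4 of 0 d, which gives the smallest p this test can reach (adjusted exact p = 0.0316). The 6 pairs come from 4 genes, so the tests depend on one another. No share over other gene pairs was computed. The log2 ratio of Myog to Myod1 was -1.96 ± 0.16 (SD, n = 4) at 0 d, 1.84 ± 0.32 at 3 d and 0.34 ± 0.25 at 28 d. Myog was thus the lower of the pair at 0 d and the higher at 3 d and 28 d. At 1 and 14 d this ratio was -0.15 ± 0.42 and 0.018 ± 0.21, and which gene was higher depended on the sample. The log2 ratio of Myf6 to Myog went from 5.47 ± 0.20 at 0 d to 2.37 ± 0.26 at 3 d and 2.19 ± 0.13 at 28 d. Myf5 fell relative to each of the other 3 at every day, by 6.54 log2 units against Myog at 3 d.

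The 4 comparisons in which the day overlapped 0 d were all of Myod1 to Myf6. Their log2 ratio was -3.52 ± 0.16 (SD, n = 4) at 0 d, and it overlapped the 0 d samples at 1, 3, 5 and 7 d, with differences of 0.18, -0.69, 0.04 and 0.23. The exact p of these 4 tests was 0.514, 0.0571, 0.543 and 0.0571, none past the threshold. At 14, 21 and 28 d the ratio was higher than at 0 d by 0.41, 0.60 and 0.99 (adjusted exact p = 0.0316 for each). The gain of Myod1 over Myf6 at the later days was thus larger than the spread between samples.

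**Figure D4:**
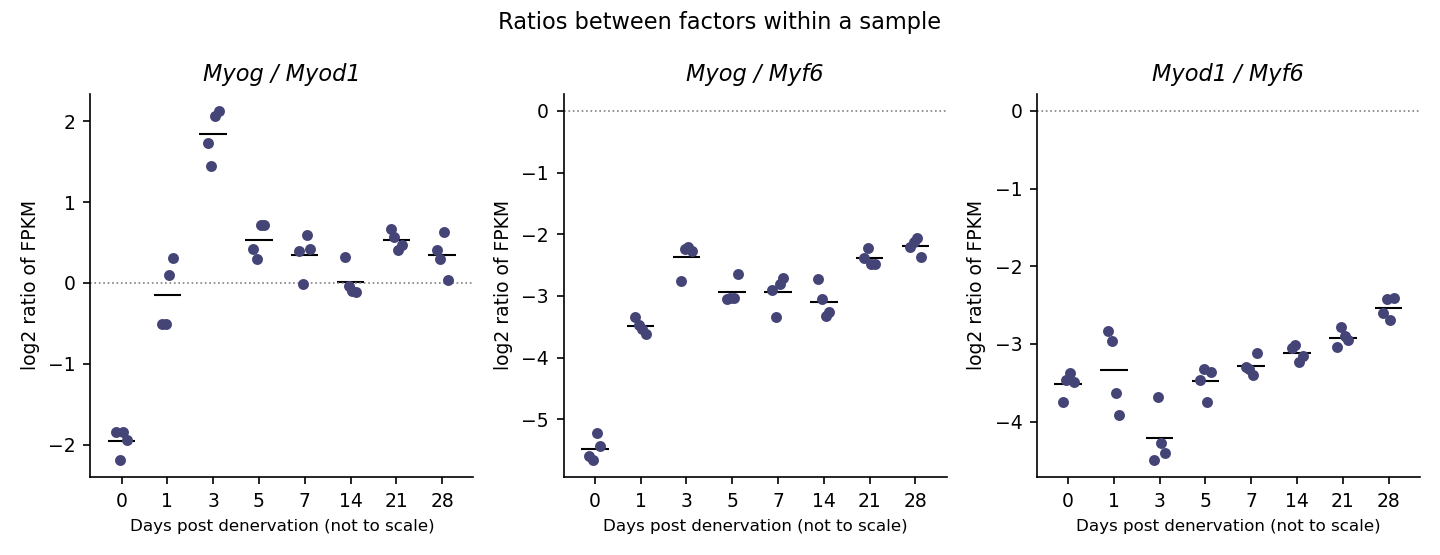
Log2 ratio of FPKM within each sample (vertical axes) for Myog to Myod1, Myog to Myf6 and Myod1 to Myf6, against days post denervation; points are samples and lines are means of 4. Myog to Myod1 is highest at 3 d (1.84), and Myod1 to Myf6 is lowest at 3 d (-4.21) and highest at 28 d (-2.53).

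Partners of the factors moved less. E proteins are the common partners that myogenic factors need to bind DNA, and of the 3 tested (Tcf3, Tcf4, Tcf12) none was called at 1, 3 or 5 d. Tcf12 was called higher from 7 d on, at 0.61 ± 0.09 at 7 d and 0.80 ± 0.09 at 28 d (limma adjusted p = 1.59e-06 and 1.98e-08), and at no day after median-ratio scaling. The median log2 change of the 3 was 0.18 at 3 d and 0.30 at 28 d, beside 0.06 and 0.14 for all genes.

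Inhibitors of the factors include the Id proteins, which take E proteins away from them. Of 16 listed, 2 to 5 were called higher and 0 to 2 lower on a day, with 4 higher and 1 lower at 3 d and 5 and 0 at 28 d. Over all genes, 2.49%, 6.03%, 3.86%, 4.1%, 3.83%, 3.93% and 4.1% were called lower on the 7 days in that order, and after median-ratio scaling 4.68%, 9.15%, 7.68%, 7.92%, 7.53%, 7.15% and 8.11%. Id2 went from 2.79 ± 0.43 FPKM (SD, n = 4) at 0 d to 6.01 ± 2.24 at 3 d and 20.1 ± 0.49 at 28 d, a log2 change of 2.49 ± 0.16 (limma adjusted p = 2.87e-13). Id1 was 1.45 ± 0.15 higher at 3 d and 1.49 ± 0.15 at 28 d, and Id3 1.11 ± 0.14 and 1.64 ± 0.14. All 3 Id genes were also called at both days after median-ratio scaling. Mdfi, which holds myogenic factors back from DNA, was called at 28 d at 1.00 ± 0.10. Bhlhe41, a repressor of the same protein class, was lower by -1.45 ± 0.10 at 1 d and -1.32 ± 0.10 at 3 d. The list's median change was 0.07 at 3 d and 0.34 at 28 d.

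Among upstream and co-acting factors, 17 of 18 passed the filter (Pax3 did not). The calls were 3 higher and 0 lower at 1 d, 5 and 2 at 3 d and 5 and 1 at 28 d. Dach2 and Hdac4 are known as a pair that links the nerve to Myog, Dach2 as a repressor of Myog and Hdac4 as a repressor of Dach2. Hdac4 went from 2.22 ± 0.31 FPKM (SD, n = 4) at 0 d to 9.07 ± 0.93 at 3 d, a log2 change of 1.65 ± 0.11 (limma adjusted p = 1.61e-13). Dach2 went from 0.92 ± 0.14 FPKM to 0.12 ± 0.01 at 3 d and 0.04 ± 0.02 at 28 d (-0.77 ± 0.05 and -0.88 ± 0.05, limma adjusted p = 1.31e-12 and 1.00e-13). Tead4, a factor of the Hippo pathway that binds muscle promoters, was higher by 1.37 ± 0.09 at 3 d and 1.66 ± 0.09 at 28 d. Mef2a, a partner of myogenic factors, was higher by 0.71 ± 0.09 and 1.74 ± 0.09, and Eya1, a coactivator of the MEF3-binding proteins, was lower by -0.66 ± 0.09 at 3 d. After median-ratio scaling the calls of this list were 2 higher and 4 lower at 3 d and 4 and 3 at 28 d, and its median change was -0.16 at 3 d as deposited.

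**Figure D5:**
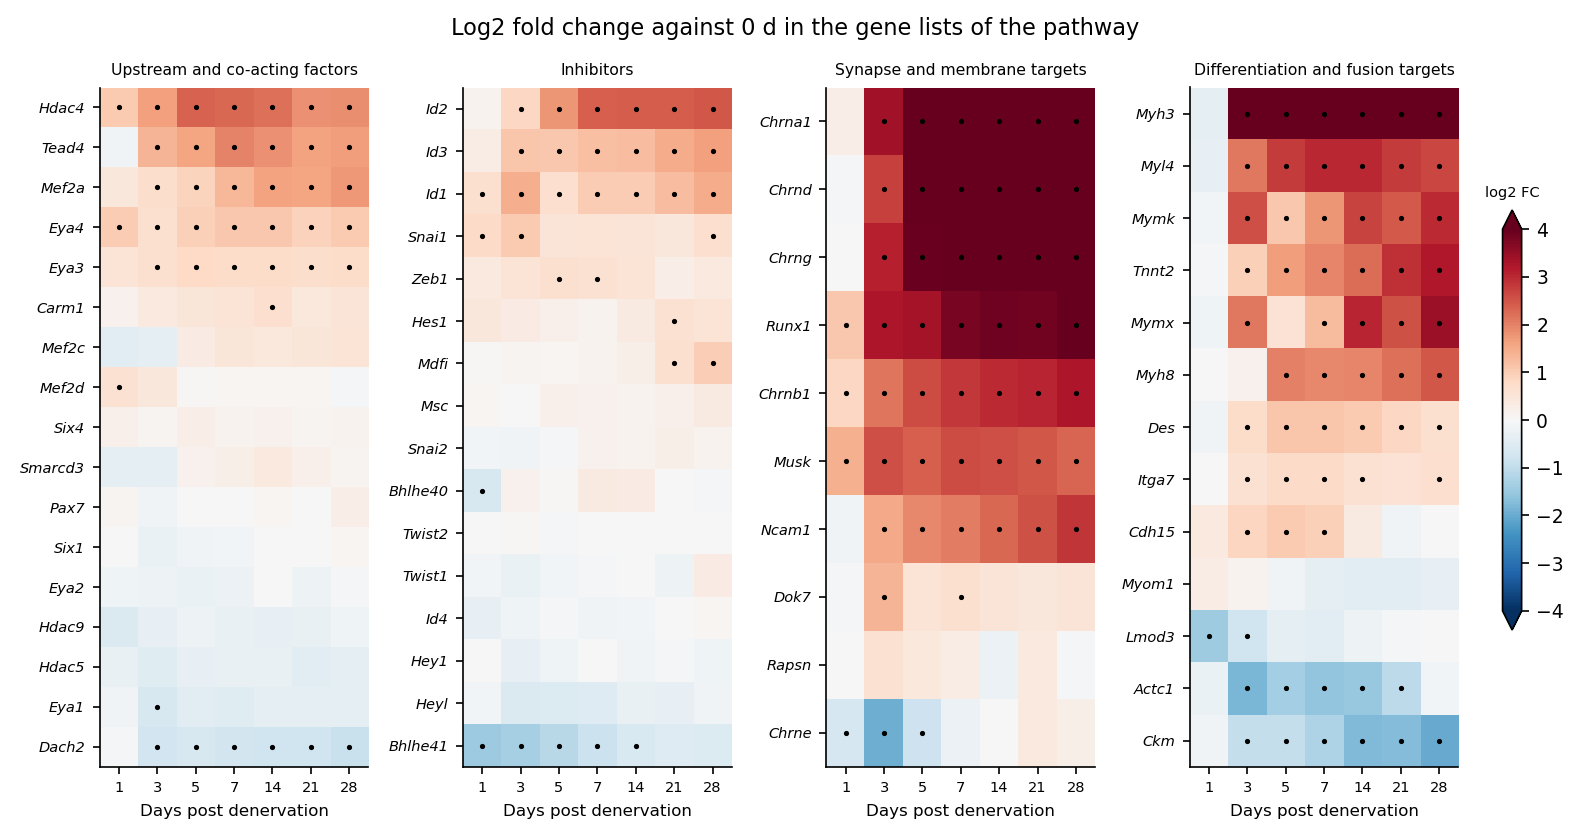
Log2 fold change on log2(FPKM + 1) against 0 d (colour, cut at 4 in either direction) of the upstream factors, inhibitors, synapse and membrane targets and differentiation and fusion targets that passed the filter, by day post denervation; dots mark genes called by limma. Of the 10 synapse and membrane targets drawn (1 of the list is not shown), 8 are called higher at 3 d, against 4 of 16 inhibitors.

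Of the pathway lists, targets at the synapse and membrane had the largest median change at 3 and 28 d. Of 11 genes, 4 were called higher and 1 lower at 1 d, 9 and 1 at 3 d, and 8 and 0 on each of 14, 21 and 28 d. The median log2 change was 0.01 at 1 d, 2.56 at 3 d and 3.24 at 28 d, beside 0.03, 0.06 and 0.14 for all genes. Chrna1, the alpha subunit of the muscle acetylcholine receptor, went from 3.56 ± 0.46 FPKM (SD, n = 4) at 0 d to 49.0 ± 21.4 at 3 d and 198 ± 19.9 at 28 d. Chrnd, the delta subunit, went from 0.90 ± 0.09 to 12.9 ± 6.71 and 125 ± 9.05 FPKM. Chrng, the fetal gamma subunit, had 0 to 6 fragments in a sample at 0 d and reached 8.99 ± 4.98 FPKM at 3 d and 57.7 ± 9.65 FPKM at 28 d. Chrne, the adult epsilon subunit, was lower by -1.96 ± 0.14 at 3 d (limma adjusted p = 3.59e-12) and was not called from 7 d on.

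Musk, the kinase that gathers receptors at the synapse, was called from 1 d on, with a log2 change of 1.41 ± 0.11 at 1 d and 2.56 ± 0.11 at 3 d. Runx1, a transcription factor of denervated fibres, went from 0.39 ± 0.04 FPKM (SD, n = 4) at 0 d to 12.4 ± 2.94 at 3 d and 24.0 ± 4.33 at 28 d.

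Targets in differentiation and fusion moved in both directions. Of 13 genes, 0 were called higher and 1 lower at 1 d, 8 and 3 at 3 d, and 8 and 1 at 28 d. The list's median log2 change was 0.73 at 3 d and 0.67 at 28 d, and after median-ratio scaling 6 genes were called higher at each of these days. Myh3, the embryonic myosin heavy chain, went from 0.80 ± 0.37 FPKM (SD, n = 4) at 0 d to 47.3 ± 27.5 at 3 d and 32.7 ± 2.29 at 28 d. Mymk and Mymx, the membrane proteins that fuse myoblasts, had 0 to 5 and 0 to 7 fragments in a sample at 0 d and reached 6.18 ± 3.44 and 4.56 ± 1.86 FPKM at 3 d and 7.53 ± 0.86 and 12.3 ± 1.19 FPKM at 28 d. Ckm, the creatine kinase of mature fibres, was lower by -0.95 ± 0.11 at 3 d and -2.01 ± 0.11 at 28 d, and Actc1, the cardiac actin, by -1.84 ± 0.33 at 3 d.

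Of 3 listed targets in protein breakdown, 2 were called higher at 1, 3, 5 and 7 d, 1 from 14 d on, and 1 lower at 28 d. The median change of the 3 was 1.31 at 3 d and 0.21 at 28 d. Trim63, the muscle ubiquitin ligase MuRF1, was at 91.4 ± 13.3 FPKM (SD, n = 4) at 0 d, 1264 ± 219 at 3 d and 54.4 ± 5.42 at 28 d. Its log2 change was 3.77 ± 0.14 at 3 d and -0.73 ± 0.14 at 28 d (limma adjusted p = 9.24e-19 and 5.63e-05), whereas Myog was still 5.36 above 0 d at 28 d. Fbxo30, another ubiquitin ligase, was higher by 1.31 ± 0.10 at 3 d and 1.01 ± 0.10 at 28 d. Fbxo32, the remaining gene of the list, was low and called on no day. It read 0.91 ± 0.16 FPKM (SD, n = 4) at 0 d, 0.93 ± 0.35 at 3 d and 1.25 ± 0.56 at 28 d.

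Markers of satellite cells and myoblasts were also read, as Myf5 and Myod1 are known to mark these cells in adult muscle. Of 10 satellite cell and myoblast markers, 1 was called higher at 1 d, 4 at 3, 5 and 7 d and 3 at 14, 21 and 28 d, and 1 was called lower at 5 d. The list shares Cdh15 and Des with the differentiation list, Heyl with the inhibitors and Pax7 with the upstream factors. Megf10, a receptor of satellite cells, went from 0.20 ± 0.02 FPKM (SD, n = 4) at 0 d to 1.28 ± 0.37 at 3 d and 3.08 ± 0.46 at 28 d, a log2 change of 1.76 ± 0.17 at 28 d. Sdc4, a syndecan that other cells also carry, was higher by 1.63 ± 0.16 at 3 d and 1.30 ± 0.16 at 28 d, and was called on all 7 days. Cdh15, the muscle cadherin, was called at 3, 5 and 7 d, at 1.05 ± 0.12 at 5 d, and Des, the muscle intermediate filament, from 3 d on, at 0.73 ± 0.08 at 3 d. Chodl was the marker called lower at 5 d, at -0.66 ± 0.10. After median-ratio scaling Des was not called at 3, 21 and 28 d nor Megf10 at 7 d, and Chodl and Heyl were called lower at 3, 5 and 7 d, and Heyl at 14 d too. Its summed level was 588 to 723 FPKM at 0 d, 1051 to 1160 FPKM at 3 d and 968 to 1077 FPKM at 28 d, most of it from Des, which fibres also express, and none of its genes was at 0 in all samples of a day. Pax7, the defining gene of satellite cells, read 0.61 ± 0.09 FPKM (SD, n = 4) at 0 d, 0.44 ± 0.12 at 3 d and 0.95 ± 0.13 at 28 d. Its 28 d samples all lay above those of 0 d, and the log2 change of 0.28 ± 0.08 passed the limma adjusted p (0.00698, or 0.26 once median-ratio scaled) but not the 1.5-fold limit. Calcr, a marker of quiescent satellite cells, read 0.22 ± 0.11 FPKM at 0 d, 0.06 ± 0.04 at 1 d and 0.11 ± 0.05 at 3 d, with a log2 change of -0.19 ± 0.06 at 1 d (limma adjusted p = 0.0162). At this level a lower call is out of reach with a pseudocount of 1. The part of these cells in the members' changes was not tested.

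Other cell types moved over the same days. The 8 macrophage markers summed to 142 to 210 FPKM at 0 d, 292 to 995 FPKM at 3 d and 463 to 549 FPKM at 28 d, none was at 0 in all samples of a day, and 8 of 8 were called higher at 3 d and 7 of 8 at 28 d. At 3 d the lowest macrophage sum, 292 FPKM, was that of replicate 1, and that day's median was 717 FPKM. Of 12 cell cycle genes, 8 were called higher and 1 lower at 3 d. Mki67, Top2a, Cdk1 and the cyclins Ccna2, Ccnb1 and Ccne1 were among the 8, with Mki67 at 1.38 ± 0.24, and from 14 d on no cyclin was called, nor Mki67, Top2a or Cdk1. The 2 genes called higher at 28 d, also among the 8 at 3 d, were the cell cycle inhibitors Cdkn1a (3.32 ± 0.16 at 28 d) and Rb1 (1.95 ± 0.12). Of the fibre markers, 6 of 11 were called lower at 3 d and 5 at 28 d, with 2 higher at 28 d, Myh1 and Cacna1s. After median-ratio scaling 8 were called lower at 3 d and 6 at 28 d, and none higher at 28 d. Whether these shifts play a part in the members' changes was not tested. Without replicate 1 at 3 d, the counts higher at 3 d were again 3 of the 4 members, 9 of 11 synapse and membrane targets, 8 of 13 differentiation and fusion targets and 4 of 16 inhibitors. Without that sample the fibroblast list had 2 of 6 called higher in place of 0, and the lower calls were 1 in place of 3 endothelial genes, 2 in place of 3 Schwann cell genes and 0 in place of 1 adipocyte gene. They were also 0 in place of 1 cell cycle gene, 7 in place of 6 fibre markers and 1 in place of 0 satellite cell markers, and the median macrophage change was 1.71 in place of 1.22.

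Finally, the genes whose log2(FPKM + 1) followed each member most closely over the 32 samples were listed from 13264 genes, as a description with no test, since the samples share days and composition. For Myod1 these were Gadd45a, Riok2, Runx1, Tlr4 and Chrnb1, with Pearson's r of 0.977 for Gadd45a (Spearman's rho 0.838) and 0.953 for Chrnb1 (0.901). For Myog they included Pvr, Hspa4, Cct3 and Eif4a1, with r of 0.985 for Pvr (rho 0.898). For Myf6 they were Eif4a1, Eif4a-ps4, Myo18a, Pes1 and Fam214b, with r of 0.979 for Eif4a1 (rho 0.906). Eif4a-ps4 is a processed copy that may share fragments with Eif4a1, so its level is uncertain. For Myf5 they were Gramd1a, Tsc2, Hpgd, Nxn and Sh3d19, with r of 0.928 for Gramd1a (rho 0.925). All 5 had their highest mean at 14 d as Myf5 did, which choosing genes by their correlation with Myf5 favours. Eif4a1, a translation initiation helicase, was at 24.6 FPKM at 0 d, 147 at 3 d and 86.3 at 28 d, and stood in the lists of both Myf6 and Myog. Gadd45a, a stress response gene, was at 3.95 FPKM at 0 d, 198 at 3 d and 242 at 28 d.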

How the data were processed

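RNA of GAS muscle was sequenced as 150-bp paired-end reads in 32 samples, 4 at each of 8 time points. The submitters' processing notes name CASAVA, HISAT2 2.1.0, DESeq2 and the build GRCm38, with no role given. The counting program and annotation are not given in the sources used here. The deposited table holds FPKM that the authors computed per gene, with 33397 genes, of which 33356 (99.9%) matched GENCODE release M21 and 41 did not. Table columns name the day but not the labelled sample, and replicate numbers here follow the letters or numbers of those columns.

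Fragments were recovered from the steps of the FPKM with merged exon lengths. At least 99.3% of values under 200 fragments were whole within 0.05, and depth was 14199901 to 17561584 fragments per sample. Precision follows the fragments per gene, 35 at the lowest for Myf5.

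Tests used limma 3.58.1 under R 4.3.3 (a linear model with trended empirical Bayes moderation) on log2(FPKM + 1), for genes that reached 0.1 FPKM in 4 or more samples. A pseudocount of 1 understates the change of low genes. All 32 samples entered 1 fit for single days (22071 genes), and the 16 samples of 0, 14, 21 and 28 d a second one (20243 genes). Calls needed a Benjamini-Hochberg adjusted p under 0.05 and a change of 1.5-fold. Exact permutation tests and ratios used scipy 1.17.1. The fit was tested on simulated data.

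The members, the 16 gene lists and the alternatives were chosen with earlier results of these data known. Of each list, up to 4 called genes with the largest change at 3 and 28 d could be named, plus those whose role a sentence needs. For each member, the 5 genes with the highest Pearson correlation were listed among genes with a mean of at least 1 FPKM on some day. 1 gene that this rule names is not reported here, and it stays in the counts. Alternatives were median-ratio scaling, quantile normalization, TPM computed from the FPKM, a pseudocount of 0.1, other filters, smaller fits and each sample left out. The calls of the fibroblast, endothelial, Schwann cell, neutrophil and adipocyte lists at 3 d were 0 higher and 0 lower of 6, 0 and 3 of 5, 1 and 3 of 6, 4 and 0 of 4, and 0 and 1 of 3 tested. Promoter sequences are from RefSeq (GRCm38.p6). Entries were matched by symbol for 2 of the 4 members.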

Additional observations from a re-analysis of the deposited data

Results flagged for a closer look

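In 32 groups of 4 samples, 3 held 1 sample far from the other 3 by Dixon's criterion, and chance marks about 1 group in 20. These were Myod1 at 7 d, where 1 sample read 96.7 FPKM, Myod1 at 14 d, where 1 read 91.2 FPKM, and Myog at 21 d, where 1 read 94.7 FPKM. None of them overlapped the 0 d samples of its gene.

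The change against 0 d differed between consecutive days, by limma's test of the step itself, for Myod1 from 1 to 3 d (1.07 on the log2 scale), Myf6 from 1 to 3 d (1.96), Myog from 1 to 3 d (3.04), Myf6 from 3 to 5 d (-0.61), Myog from 3 to 5 d (-1.17) and Myf5 from 7 to 14 d (0.62).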

How the results depend on the processing

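Myod1, Myf6 and Myog kept their direction and call against 0 d under all alternatives run, with log2 changes at 3 d of 2.43 to 3.03, 3.36 to 3.77 and 5.91 to 6.71. Myf5 at 1 d turned to -0.078 with median-ratio scaling, -0.052 with quantile normalization and -0.0064 without replicate 3 of 1 d (-0.0064 to 0.050 with 1 sample left out), and at 3 d to -0.022 with median-ratio scaling; none was called. Myf5 at 5 and 7 d was called at 0.78 with a pseudocount of 0.1, 0.82 with TPM and 0.51 on the adjusted p alone. At 21 and 28 d it lost the 1.5-fold limit with median-ratio scaling (0.50 and 0.45) and quantile normalization (0.50 and 0.43). The log2 ratio of Myod1 to Myf6 at 5 d turned to -0.081 with 1 FPKM added, -0.0049 without replicate 2 of 5 d and -0.032 without replicate 1 of 0 d (-0.032 to 0.14 with 1 sample left out). With 1 FPKM added 39 of 42 ratios passed, Myod1 to Myf6 at 3 d (-0.82) among them. Leaving out a sample leaves 3 against 4, too few for an exact p under 0.05, so ratios without a sample are values with no test.

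Genes called at 1, 3, 5, 7, 14, 21 and 28 d and at the later days together numbered 1950, 4254, 4148, 4308, 4075, 3466, 4049 and 3800. On the adjusted p alone they numbered 6493, 9559, 10068, 10429, 10434, 9227, 10518 and 11638, and with a pseudocount of 0.1, 3621, 6847, 6934, 7267, 7138, 6057, 7277 and 7106. With TPM they numbered 3313 at 1 d, 7135, 7448, 7610, 5720 and 7216 at 5 to 28 d and 6868 together.

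Alternatives for the steps between days and for 3 to 28 d were chosen after seeing the data. With a pseudocount of 0.1, 4025 genes were called from 1 to 3 d, 2646 from 3 to 5 d and 221 from 7 to 14 d, against 2331, 1272 and 140, and 4938 from 3 to 28 d, against 2647. Leaving out 1 sample gave 1 to 2 members called from 3 to 5 d (1 without replicate 4 of 3 d), 0 to 1 from 7 to 14 d, 2 to 4 from 3 to 28 d (Myf5 was called without replicate 4 of 3 d or replicate 1 or 3 of 28 d), and 29 to 52 genes from 21 to 28 d. No paired analysis was possible because the table's columns carry no replicate number of the labels. Depth limits Myf5 most, at 35 to 48 fragments per sample at 0 and 1 d.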
